A study of Drosophila melanogaster with 12 samples.

Results

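The wild-type fat body was compared with the wild-type salivary gland over all windows of the major chromosome arms of Drosophila melanogaster, X, 2L, 2R, 3L and 3R. The comparison takes 4 of the 12 libraries of the series. The fat body group holds 2 libraries, each made from the fat bodies of 25 Oregon-R female larvae at 96 h after egg laying. The salivary gland group holds 2 libraries of glands from Oregon-R female 3rd instar larvae dissected before wandering, about 20 larvae for the genotype. Neither group carries a mutation or a transgene, no agent was given, and the replicates of both tissues were biological duplicates. Each library is genomic DNA of a whole dissected organ pooled over larvae, so a score is an average over its cells. DNA libraries carry no marker expression, and the tissue labels could not be checked in that way. The arms hold 118985 of the 120166 windows in the table, and consecutive runs of 50 windows made 2382 bins.

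The larval fat body stores lipid and glycogen, secretes serum and antimicrobial proteins and takes the place of liver and adipose tissue, while the larval salivary gland makes the glue that fixes the pupa to its support. Both grow by endocycles, in which cells replicate their DNA again and again without dividing and become polyploid. In such cells some late-replicating stretches fail to finish replication and end at a lower copy number, which is called underreplication (UR). UR lies in the pericentromeric heterochromatin (PH) and at sites within the arms, the euchromatic UR regions (eUR), and the remaining DNA is called fully replicated (FR).

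The measured value is the rawRT score, a GC-corrected read depth of windows of 1000 uniquely alignable bp, brought by the authors to mean 0 and SD 1 outside UR. A higher score means more copies, read as earlier replication, and in UR low copy number and late replication cannot be told apart by this score. Positions are given as in the files, in dm6, where window coordinates are rounded to 5 significant digits.

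Domains outside UR that were higher in the fat body differed from those that were lower in base composition, so stretches are shown of 2 named domains, those with the highest and the lowest GC content among the named domains outside UR on X, 2L, 3L and 3R. Each is 150 bases between 2 neighbouring genes and has about the GC content of its domain, with G and C in capitals. The sequences are the plus strand of the RefSeq Release 6 assembly, whose arms contain every window of the files. The stretch of 2B, lower in the fat body than in the salivary gland, lies at chrX:1722425-1722574 between CG3795 and Scgdelta and has 46.7% GC. The stretch of 80C to 80F, higher in the fat body, lies at chr3L:23147355-23147504 between CG33217 and Vps11 and has 39.3% GC.
X 2B: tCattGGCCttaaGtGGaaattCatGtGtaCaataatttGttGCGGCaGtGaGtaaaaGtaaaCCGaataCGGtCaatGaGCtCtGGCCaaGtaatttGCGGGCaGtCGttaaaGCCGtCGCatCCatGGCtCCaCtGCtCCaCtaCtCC
3L 80C to 80F: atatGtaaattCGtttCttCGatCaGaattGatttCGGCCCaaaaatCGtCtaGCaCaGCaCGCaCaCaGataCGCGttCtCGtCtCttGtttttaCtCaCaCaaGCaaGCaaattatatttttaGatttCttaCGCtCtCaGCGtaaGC

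The scores of the 2 tissues shared their large-scale pattern but not its detail outside UR. Over the 2267 bins in which every library had 25 values or more, the fat body mean correlated with the salivary gland mean with Pearson's r = 0.915 and Spearman's rho = 0.607. Over the 2036 of these bins with a share of under 0.5 of their windows in UR of either tissue, r was 0.535 and rho 0.465. Replicates were closer than the tissues were, with r = 0.838 for fat body replicates and 0.943 for those of the salivary gland over the same 2036 bins. These correlations are across bins, which are not independent replicates. The fat body profile was flatter outside UR, with SDs of the bin means of 0.53 and 0.39 in its libraries, against 0.72 and 0.75 in salivary gland replicates. Values were missing in 1.34% and 5.72% of the windows of fat body replicates 1 and 2 and in 2.55% and 2.17% of those of salivary gland replicates 1 and 2. The depth behind the scores is unknown, since the files hold no counts.

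Tested bin by bin with limma, 499 of 2267 bins differed between the tissues, 22.0% of those tested, at a Benjamini-Hochberg adjusted p below 0.05. Of these, 308 were higher in the fat body (13.6%) and 191 lower (8.43%). Outside UR 221 bins were higher (10.9%) and 185 lower (9.09%), with median differences of 1.02 and -0.89 and median SEs of 0.17 and 0.15. In the 231 tested bins of UR 87 were higher and 6 lower, with median differences of 2.53 and -2.43. The study's own test, a one-way analysis of variance on the windows of each bin with a Bonferroni adjusted p below 0.01 and a length above 200 kb, named 482 variant bins of 2382 (20.2%) in 76 regions. It treats the windows of a library as replicates, which they are not, and 284 of the 499 limma calls were variant bins. Leaving out a library left few limma calls, 0 without fat body replicate 1 or without fat body replicate 2, 78 without salivary gland replicate 1 and 61 without salivary gland replicate 2, in fits that assume the lone library varies like the others. Without fat body replicate 1, 892 bins still had an unadjusted p below 0.05, and without fat body replicate 2, 761 did, against 938 with all 4 libraries. When the libraries were brought to 1 distribution by quantile normalization, limma called 315 bins higher and 421 lower, and when each was divided by the SD of its spatial signal, 283 higher and 323 lower. Of the 499 calls 376 kept their direction and their side of the threshold under both scalings, 227 higher and 149 lower.

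The fat body score varied less than the salivary gland score along the order of the salivary gland profile. Bins outside UR were sorted into quartiles, from Q1 (earliest) to Q4 (latest), by salivary gland replicate 1 and then read in the other libraries. In the Q1 bins the medians were 0.27 and 0.11 in fat body replicates, against 0.64 in salivary gland replicate 2. In the Q4 bins they were -0.28 and -0.20 in fat body replicates, against -0.89 in salivary gland replicate 2. The median difference ran from -0.50 in Q1 over -0.12 in Q2 and 0.20 in Q3 to 0.68 in Q4. With the quartiles set by salivary gland replicate 2, the median differences were -0.45 in Q1 and 0.55 in Q4. Sorting by one tissue fixes part of such a pattern, since the other tissue follows the order only loosely, and the values are a description. Sorted by fat body replicate 1 and read in fat body replicate 2, an order chosen after the data were seen, the bins had median differences of -0.098 in Q1 and 0.19 in Q4. Sorted by fat body replicate 2 and read in fat body replicate 1, they had 0.16 in Q1 and 0.0026 in Q4.

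**Figure D1:**
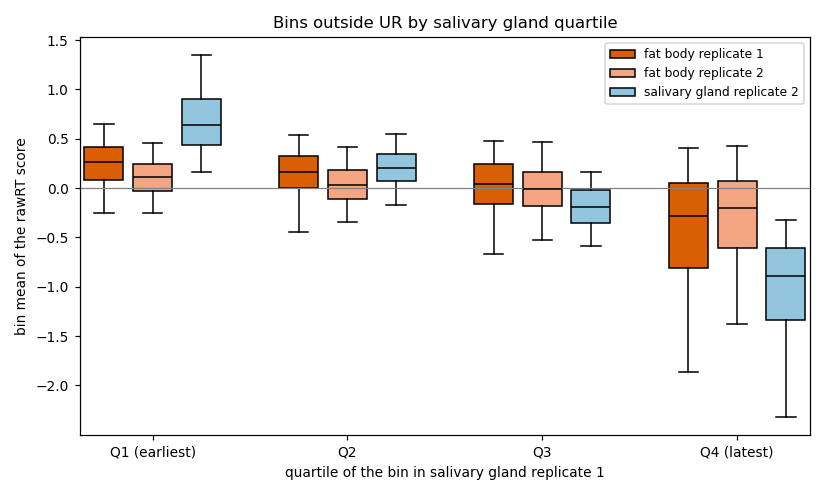
Bin means of the rawRT score (vertical axis, score without unit) for bins outside UR, grouped by the quartile of the bin in salivary gland replicate 1 (horizontal axis), with boxes over the interquartile range, a line at the median and whiskers from the 5th to the 95th percentile. The medians of fat body replicates ran from 0.27 and 0.11 in Q1 to -0.28 and -0.20 in Q4, a narrower range than that of salivary gland replicate 2, from 0.64 to -0.89.

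The calls formed 228 runs along the arms, of which 33 were domains of at least 4 consecutive bins in one direction. Outside UR 12 domains were higher in the fat body and 10 lower, and in UR 11 were higher and 0 lower. Outside UR means a share of under 0.5 of the windows in UR of either tissue, so such a domain can hold UR. One of them, in 41A (993700 to 1419700), had -3.91 and -3.82 in salivary gland replicates, below the salivary gland UR threshold of -2.85. The 6 longest of each direction outside UR and the 4 longest in UR are described with their values. A domain's score is the mean of its windows in a library, and its percentile is its place among the tested bins of the same library. An exact permutation test of 2 libraries against 2 cannot go below 33.3%, so the p-values given are those of limma for the bins of the domain. Only bins with a limma adjusted p below 0.05 make up a domain, so these p-values are set by the choice and do not test the domain. The size of the differences and the gap between the tissues follow in part from the same choice.

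The longest domain was the proximal part of 2R from 41A to 41F (3873600 to 5772800), 28 bins that were higher in the fat body. Its score was -0.62 and -0.61 in fat body replicates, against -2.77 and -2.37 in salivary gland replicates. The tissues did not overlap, and the difference of 1.96 was several times the spread between replicates (adjusted p of its bins 0.0148 to 0.0398, limma). The domain holds 48 protein-coding genes, among them Nipped-B, which loads cohesin onto chromosomes, sxc, the transferase that adds O-GlcNAc to proteins, Nipped-A, a subunit of the SAGA complex, the ribosomal protein gene RpL38, and ap, the selector of dorsal wing identity. Of its windows 24.4% lay in UR of either tissue. A shorter domain in 41A (993700 to 1419700, 5 bins), with the MAP kinase gene rl, had -1.86 and -1.43 in fat body replicates and -3.91 and -3.82 in salivary gland replicates, with 42.8% of its windows in UR.

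On 3L the last bands before the heterochromatin, 80C to 80F (22929000 to 23366000, 7 bins), were also higher in the fat body. The score was -0.18 and -0.41 in fat body replicates and -1.94 and -1.66 in salivary gland replicates. The difference was 1.5 (adjusted p 0.0148 to 0.0472, limma), and fat body replicates stood at the 32.9th and 20.5th percentile of their bins while those of the salivary gland stood at the 12th and 13.6th. Genes here include alpha-Cat, the catenin that ties cadherins to actin, CkIIalpha, the catalytic subunit of casein kinase II, the ribosomal protein gene RpL10 and nAChRalpha4, a subunit of the nicotinic acetylcholine receptor.

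The other 3 long domains higher in the fat body lay within the arms and had no window in UR. At 67D to 67E on 3L (10266000 to 10619000, 7 bins) the score was -0.13 and 0.28 in fat body replicates, against -1.13 and -1.17 in salivary gland replicates. The domain covers Rbfox1, which encodes a splicing regulator, Gem3, an RNA helicase of the SMN complex, the pheromone receptor gene Or67d and the ionotropic receptor genes Ir67b and Ir67c. The fat body replicates stood at the 35.7th and 86.6th percentile of their libraries there, a wide gap, while both salivary gland replicates stood at the 16.6th and 17.1st. The difference was 1.22 (adjusted p 0.0176 to 0.0426, limma).

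At 34E to 35A on 2L (13925000 to 14275000, 7 bins) the score was 0.11 and 0.20 in fat body replicates, against -0.69 and -0.74 in salivary gland replicates. This is the Nimrod cluster, with NimC1 and related genes of phagocytic receptors, and with He, a surface protein of blood cells, rk, the receptor of the hormone bursicon, and bgm, an acyl-CoA synthetase for very long chains. All 7 bins were called under both scalings, and the difference was 0.88 (adjusted p 0.0175 to 0.0393, limma). At 96D to 96E on 3R (25350000 to 25651000, 6 bins) the score was 0.20 and 0.35 in fat body replicates and -0.98 and -0.80 in salivary gland replicates, and all 6 bins were called under both scalings. It holds msi, the RNA-binding protein Musashi, XNP, a chromatin remodeller, and Npl4, a cofactor of the p97 ATPase.

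Of the 6 named domains lower in the fat body, all but 97F to 98A stood at the 81.8th percentile or above in both salivary gland replicates. The longest, on X in 2B (1478400 to 1966400, 9 bins), had 0.13 and 0.070 in fat body replicates, against 1.27 and 1.42 in salivary gland replicates. It stood at the 59.5th and 62.3rd percentile of fat body replicates and at the 98.3rd and 99.1st of salivary gland replicates. Its genes include br, the zinc finger factor of the early ecdysone response, arm, the beta-catenin of the fly, Adar, which edits RNA, dor, a subunit of the vesicle-tethering complex of the lysosome, and trr, a histone H3 lysine methyltransferase. The difference was -1.25 (adjusted p 0.0148 to 0.0499, limma), and 8 of the 9 bins were called under both scalings.

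At 100C to 100D on 3R (31541000 to 31954000, 8 bins) the score was -0.030 and -0.092 in fat body replicates, against 1.29 and 1.08 in salivary gland replicates. The genes there include ttk, a BTB zinc finger repressor, awd, a nucleoside diphosphate kinase, pygo, a coactivator of Wnt signalling, rod, a kinetochore protein, and RpL6. The difference was -1.25 as well (adjusted p 0.0195 to 0.0393, limma). At 88E to 88F on 3R (15232000 to 15582000, 7 bins) the libraries had 0.19 and 0.092 in the fat body and 0.98 and 0.96 in the salivary gland. That domain holds Act88F, the actin of the flight muscle, Tm1 and Tm2, the tropomyosins, Hsc70-4, a constitutive chaperone, Su(var)3-9, a histone H3 lysine 9 methyltransferase, and Cp190, an insulator protein.

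The other 3 lower domains stood at or below the 21.2nd percentile of fat body replicates. At 21E on 2L (625610 to 994050, 7 bins) the score was -0.52 and -0.42 in fat body replicates, against 0.48 and 0.47 in salivary gland replicates, and all 7 bins were called under both scalings. It holds ds, a protocadherin of planar polarity, dock, an adaptor of axon guidance, Gr21a, a receptor for carbon dioxide, and Lsp1beta, a gene of a serum protein that the fat body itself secretes. At 98D on 3R (28444000 to 28644000, 4 bins), with fkh, the forkhead factor that specifies the salivary gland, and Ppn, the matrix protein papilin, it was -0.61 and -0.47 in fat body replicates and 0.62 and 0.50 in salivary gland replicates.

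The lowest fat body scores of these domains were those of 97F to 98A on 3R (27326000 to 27544000, 4 bins), with side, whose protein attracts motor axons, and the taste receptor genes Gr98a and Gr98b. The domain had -2.18 and -1.42 in fat body replicates, against -0.13 in both salivary gland replicates. The difference of -1.67 (adjusted p 0.0262 to 0.0482, limma) was the largest of the 10 lower domains, and 49.0% of the windows lay in UR, that of the fat body.

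**Figure D2:**
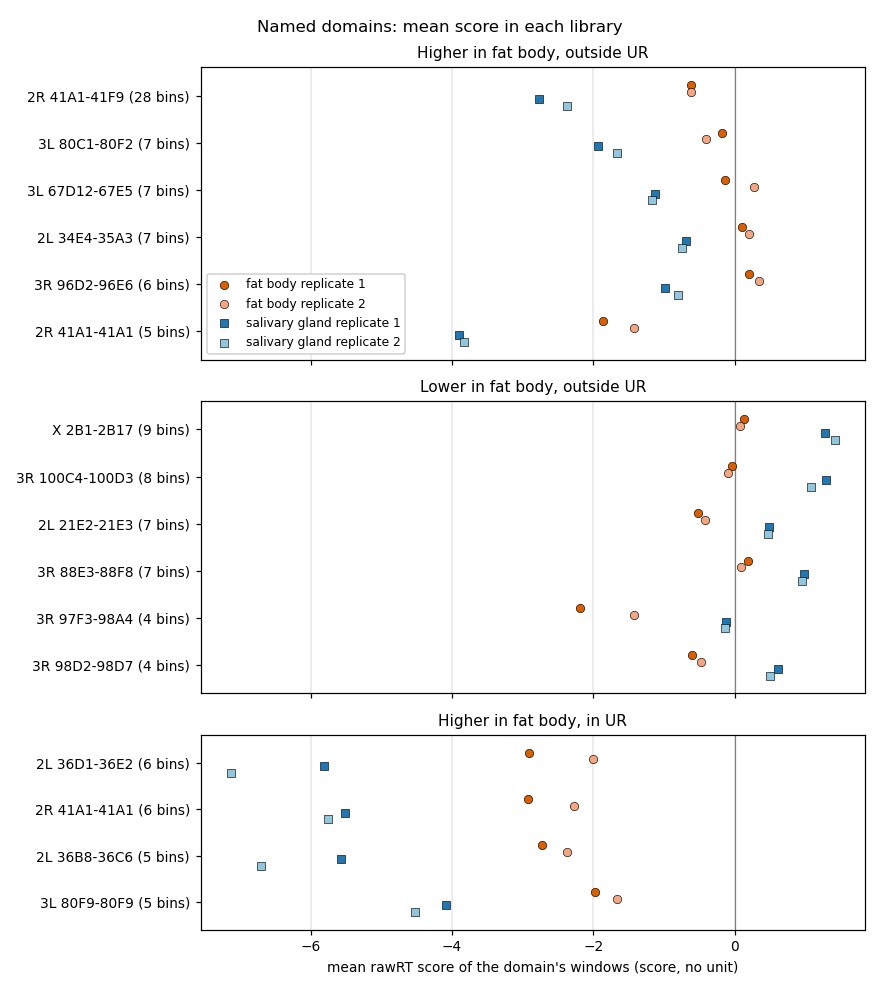
Mean rawRT score (horizontal axis, score without unit) of the windows of each named domain in each library, with fat body libraries as circles and salivary gland libraries as squares, and the domains named by arm and cytological bands. In all 16 domains both fat body replicates lie on the same side of both salivary gland replicates, and the 4 domains in UR have the lowest scores of the salivary gland, from -7.13 to -4.09.

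Within UR the domains were higher in the fat body, and the differences of the 4 longest were larger on the deposited scale. This depended on the scaling. After scaling by signal SD they were 2.79 at 36D to 36E, 2.13 at 36B to 36C, 1.51 in 41A (2372000 to 2973400) and 1.46 in 80F. Outside UR the same scaling gave 1.79 for 41A to 41F and -3.32 for 97F to 98A. At 36D to 36E on 2L (17643000 to 17957000, 6 bins) the score was -2.90 and -2.0 in fat body replicates, against -5.81 and -7.13 in salivary gland replicates. The domain is taken up by CadN and CadN2, which encode N-cadherins of neurons. The difference was 4.02 (adjusted p 0.0176 to 0.0262, limma). At 36B to 36C (17079000 to 17343000, 5 bins), with beat-IIIa and beat-IIIc, immunoglobulin-domain proteins of axon guidance, and the taste receptor genes Gr36a to Gr36c, the score was -2.73 and -2.37 in fat body replicates and -5.57 and -6.70 in salivary gland replicates. Both 36B to 36C and 36D to 36E stayed at or below the 7.68th percentile of each fat body and wild-type salivary gland library, so both tissues had low scores there.

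The other 2 long domains of UR lay in heterochromatin. On 2R within 41A (2372000 to 2973400, 6 bins) the score was -2.93 and -2.27 in fat body replicates, against -5.52 and -5.75 in salivary gland replicates. On 3L within 80F (25732000 to 26169000, 5 bins) it was -1.97 and -1.67 in fat body replicates, against -4.09 and -4.53 in salivary gland replicates. These stretches hold 3 and 2 protein-coding genes, among them Scp1, a calcium-binding protein, and FASN3, a fatty acid synthase.

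By one rule for both tissues, runs of at least 50 kb in which the running median of 21 windows of the tissue mean lay over 1 SD below the mean of all windows (below -2.18 in the fat body and -2.85 in the salivary gland), 38 eUR regions were called in the fat body and 45 in the salivary gland, of which 29 salivary gland regions overlapped UR of the fat body. PH was counted from the centromere end of each arm up to the first run of 100 windows that were not below the threshold. The eUR of this rule thus also holds regions in heterochromatin, such as those in 41A and 80F, and is not euchromatin alone. Over the windows in salivary gland UR the median difference was 1.77, with 2.14 in eUR and 0.58 in PH, against 0.023 in FR windows. Since a low salivary gland score chose these windows, the values are a description. With UR called in 1 salivary gland library and measured in the other, the median difference was 2.06 and 1.30, and in PH alone it was 1.38 and 0.058.

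Of the 45 salivary gland eUR regions 35 had values in both fat body replicates. A low salivary gland score chose them, and over all tested bins the tissues did not overlap in 70.8%, in either direction. The differences of the 35 regions ranged from 0.21 to 4.08 with a median of 2.15, and in 32 of them both fat body replicates lay above both salivary gland replicates. The highest was 36C to 36E with CadN, at -2.29 and -2.0 in fat body replicates, against -5.59 and -6.87 in salivary gland replicates, where fat body replicate 2 had values in 279 of 406 windows. The next were a region in 40F (22616000 to 22888000) at 3.11, 36B to 36C at 3.08 and 35B4 to 35B7 with the protamine genes ProtA and ProtB at 2.97. In 35B4 to 35B7 fat body replicate 2 had values in 162 of 215 windows, and over the windows with a value in all 4 libraries the difference was 2.71, below that of 3 regions with smaller differences over all windows.

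At the other end 4 regions had differences below 1. In 81F on 3R, with Gfat1, an enzyme of the hexosamine pathway, the score was -6.56 and -4.58 in fat body replicates, against -5.49 and -6.07 in salivary gland replicates, and the tissues overlapped. At 67D2 to 67D8 with dpr6, an immunoglobulin-domain protein of synaptic partner choice, it was -2.95 and -2.09 in fat body replicates and -2.64 and -3.64 in salivary gland replicates. The regions at 65A to 65B, with the odorant receptor genes Or65a to Or65c, and at 35D2, with wor and sna, zinc finger factors of the Snail family, had differences of 0.86 and 0.87.

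In 10 of the 45 regions fat body replicate 2 had no value in any window, 1156 windows in all, and the fat body rests there on replicate 1 alone. In all 10 this library lay above both salivary gland replicates. Its scores ranged from -1.90 to 0.089 with a median of -1.12, against -5.44 to -2.77 over both salivary gland replicates. The regions include the bithorax complex at 89D to 89E, with the Hox genes Ubx, abd-A and Abd-B, at -0.96 in fat body replicate 1, against -4.41 and -5.44 in salivary gland replicates. They also include hth at 86C, a homeodomain partner of Hox proteins, at -0.23 in fat body replicate 1, against -3.01 and -3.83, and the neuroligin genes Nlg1 and Nlg3 at 84D, synaptic adhesion proteins, at -1.36, against -3.51 and -4.40. With 1 fat body library these regions were not tested. Over all windows, fat body replicate 2 had 45 stretches of at least 20 windows without a value, 4623 windows in all, and fat body replicate 1 had 2 such stretches. In these 45 stretches the median score was -0.75 in fat body replicate 1, against -2.11 and -2.46 in salivary gland replicates. Restricted to windows with a value in all 4 libraries, limma called 524 bins, 490 of the 499 calls among them, and the median difference in salivary gland UR was 1.59.

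**Figure D3:**
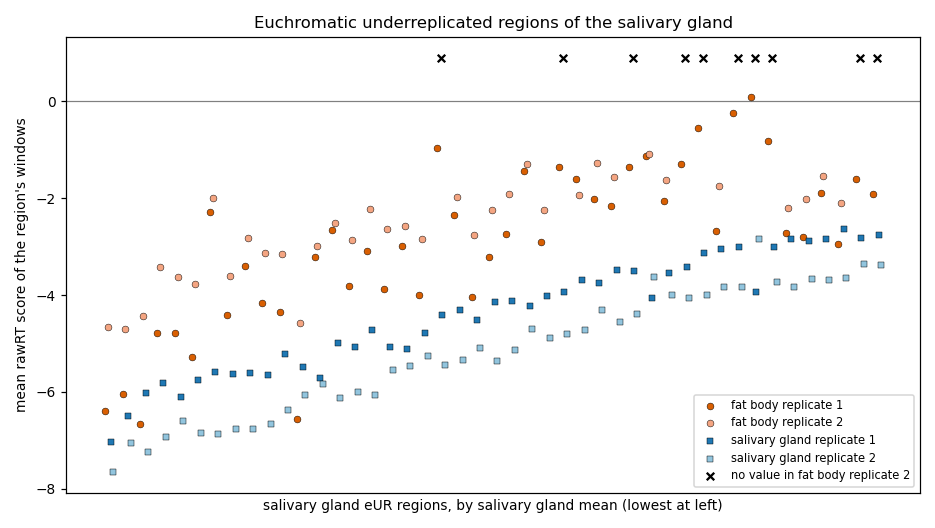
Mean rawRT score (vertical axis, score without unit) of each of the 45 eUR regions called in the salivary gland, in order of the salivary gland mean from the lowest at the left (horizontal axis), for 2 fat body libraries (circles) and 2 salivary gland libraries (squares). Crosses mark the 10 regions with no value in fat body replicate 2, and in 32 of the other 35 both circles lie above both squares.

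Of the 38 fat body eUR regions 6 overlapped no salivary gland UR, and the tissues were far apart in 3. At 4E to 4F on X (5144400 to 5251400), with rg, which encodes an anchor of protein kinase A, the score was -3.42 and -2.13 in fat body replicates, against -0.17 and -0.20 in salivary gland replicates. At 24C to 24D on 2L (3950600 to 4128200), with the related genes ed and fred, immunoglobulin-domain adhesion proteins, it was -3.34 and -2.18 in fat body replicates and -0.95 and -1.09 in salivary gland replicates. At 97F to 98A on 3R (27365000 to 27463000), over side, it was -2.81 and -1.86 in fat body replicates and -0.33 and -0.49 in salivary gland replicates. These 3 were at the 45.1st, 19.1st and 37.1st percentile of salivary gland replicate 1. In the other 3 the salivary gland was low as well, at -2.51 and -2.85 in 7B with rumpel, -2.95 and -3.44 in 12D to 12E with copies of the repeated Stellate genes, whose reads may be shared between copies, and -1.83 and -2.23 in 87D with beat-Va, and fat body replicates overlapped salivary gland replicates in each of the 3. Since a low fat body score chose them, the differences are a description.

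GC content separated the bins that differed outside UR. Bins higher in the fat body had a median GC content of 40.1%, bins lower in the fat body 44.2% and bins not called 42.9%. In the 679 bins with the lowest GC content 173 were higher and 26 lower, and in the 679 with the highest 7 were higher and 105 lower. The fat body medians were 0.039 in the bins of lowest, 0.033 in those of middle and 0.11 in those of highest GC content, while the salivary gland medians were -0.40, -0.014 and 0.35. The correlation of the score with GC content over the 2036 bins was r = 0.20 and 0.014 in fat body replicates, against 0.51 and 0.56 in salivary gland replicates. It was 0.45 and 0.51 in Rif1 mutant salivary glands and 0.72 and 0.63 in SuUR mutant salivary glands, -0.16 and -0.18 in follicle cells and 0.13 and 0.15 in wing discs. These are descriptions across bins, and the authors had already corrected the fat body and salivary gland scores for GC. Whether that correction acted alike in both tissues could not be settled from the files.

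**Figure D4:**
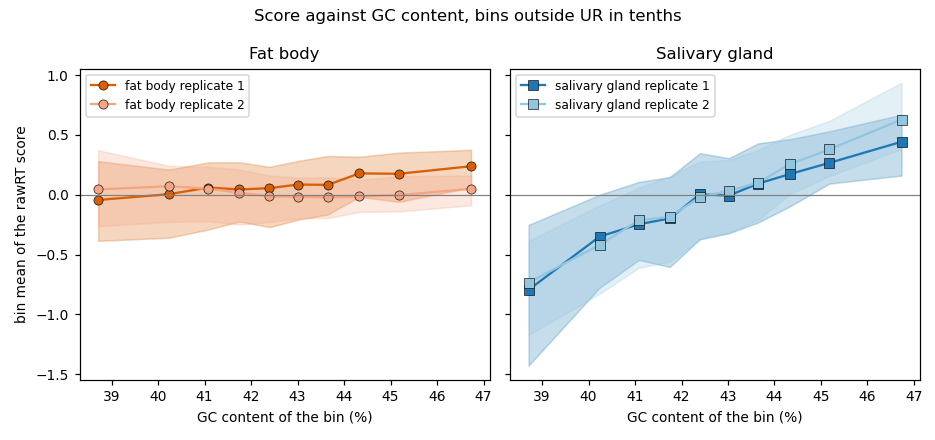
Bin means of the rawRT score outside UR (vertical axis, score without unit) against the GC content of the bin in percent (horizontal axis), as medians over deciles of the bins with the interquartile range shaded, for fat body replicates (left) and salivary gland replicates (right). From the lowest to the highest decile the medians ran from -0.044 to 0.24 and from 0.045 to 0.051 in fat body replicates, and from -0.79 to 0.44 and from -0.73 to 0.63 in salivary gland replicates.

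When each library's bin means were adjusted for the GC content of the bin by a cubic fit, an alternative chosen after the data were seen, limma called 280 bins, 165 higher and 115 lower. Outside UR it called 102 higher and 110 lower, and of the 406 calls made without the adjustment 175 were kept and 0 turned. All 33 domains kept their direction, and 5 of them had no bin called. The difference of 80C to 80F was 0.71 with the adjustment, with 2 of 7 bins called, and that of 67D to 67E was 0.54, with 1 of 7. That of 2B was -0.70 with 4 of 9 bins called, that of 21E -0.59 with 1 of 7, that of 88E to 88F -0.53 with 4 of 7 and that of 98D -0.73 with 0 of 4. The other named domains changed less relative to their size. In score units some changed as much or more, such as the 41A domain in UR, with 3.04 without and 2.23 with the adjustment. The proximal domain of 2R had 1.42 with 17 of 28 bins called, 100C to 100D had -0.98 with 4 of 8, 34E to 35A had 0.73 with 5 of 7, 96D to 96E had 0.80 with 3 of 6, and the domain of the CadN genes had 3.54 with all 6. Of the 39 bins that hold the called genes named for the gene lists, 18 were still called and all 39 kept their sign. The part of GC content in the differences was not tested.

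Position and gene content also differed between the calls outside UR. Bins higher in the fat body held a median of 3 protein-coding genes, bins lower in the fat body 5 and bins not called 6, and the median gene lengths were 2.27, 2.26 and 2.20 kb. Of the higher bins 28.5% lay within 200 kb of salivary gland UR, against 7.03% of the lower bins and 9.75% of the bins not called. Within 6 Mb of the centromere end of the arm lay 28.1% of the higher bins, 15.1% of the lower and 9.20% of those not called. The calls were spread over the arms, from 14.9% of the tested bins outside UR on X to 22.9% on 3L.

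Some bins lay in opposite quartiles of the 2 tissues. In 1020 of the 2267 tested bins both replicates of each tissue had the same quartile, and 401 of these, 39.3%, were in another quartile in the fat body than in the salivary gland, 177 earlier in the fat body and 224 later. A bin in Q1 of the fat body was in Q4 of the salivary gland in 12 cases and the reverse held in 7, while 368 bins were in Q4 of both. Of the 12 the largest differences were those of 3 bins of the proximal domain of 2R, over RNASEK and IntS3 (2.54), sxc (2.39) and Nipped-B (2.14), of a bin in 35B with osp (2.20), and of a bin in 40F with RpL21 and Tif-IA, an initiation factor of RNA polymerase I (1.74). The bin of osp (14687000 to 14745000) had 0.37 and 0.57 in fat body replicates, against -1.58 and -1.89 in salivary gland replicates. Fat body replicate 2 had no value from 14712000 to 14782000, so its mean leaves out part of the bin. Over that stretch fat body replicate 1 had -0.10, against -4.16 and -5.03 in salivary gland replicates. The difference of this bin thus sets unlike windows side by side.

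The 7 bins in Q4 of the fat body and Q1 of the salivary gland were led by a bin in 100D to 100E with heph, a polypyrimidine tract-binding protein, at -0.83 and -0.36 in fat body replicates, against 1.77 and 0.91 in salivary gland replicates. Next were bins with sm, an RNA-binding protein (-1.52), with Gr98a and Gr98b (-1.49), with Ppn (-1.44) and with Cph (-1.35). Every bin of both kinds passed limma's threshold.

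Genes were given the values of the bin that holds their midpoint, so neighbours share values. Of 16837 genes in tested bins, 8.52% lay in bins higher in the fat body and 8.48% in bins lower in the fat body, 1434 and 1428 genes. After quantile normalization 1507 genes lay in higher and 3310 in lower bins, and after scaling by signal SD 1562 and 1561, so the balance of a list depends on the scaling. The 11 glue genes of the salivary gland, which encode the secreted Sgs proteins and related products, lay in 5 bins, all with the lower mean in the fat body. The cluster of Sgs3, Sgs7 and Sgs8 at 68C had 0.099 and -0.11 in fat body replicates, against 1.40 and 0.99 in salivary gland replicates (difference -1.20 ± 0.20 SE, limma adjusted p = 0.0272). It was the 1 called bin of the 5, with 3 of the 11 genes.

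The other 4 bins of glue genes did not pass the threshold. Sgs4 and ng1, ng3 and ng4 at 3C had -0.74 and 0.018 in fat body replicates and 0.84 and 0.65 in salivary gland replicates (limma adjusted p = 0.0600, -1.11 ± 0.29 SE), and ng2 in the next bin had -0.58 and 0.17 in fat body replicates and 0.20 and -0.13 in salivary gland replicates. Sgs5 and Sgs5bis at 90B had 0.28 and 0.22 in fat body replicates and 0.98 and 0.72 in salivary gland replicates (limma adjusted p = 0.0576). Sgs1 at 25B had 0.61 and 0.25 in fat body replicates and 1.19 and 0.73 in salivary gland replicates. Salivary gland replicate 2 had no value from 4932400 to 4986500, a stretch that covers Sgs1, so its score there comes from other windows of the bin. In the 21 windows at the midpoint of Sgs1, salivary gland replicate 1 had 1.87, against 0.15 and 0.022 in fat body replicates. In 4 of the 5 bins the tissues did not overlap, and in the bin of ng2 they did. In the 21 windows at the midpoint of ng2, however, fat body replicates had -1.23 and -0.39, against 0.97 and 0.46 in salivary gland replicates. Over all tested bins the tissues did not overlap in 1605 of 2267, or 70.8%, in either direction. With the GC adjustment the bins of Sgs3, Sgs4 and Sgs5 had limma adjusted p = 0.0295, 0.0324 and 0.0480, and those of Sgs1 and ng2 had 0.193 and 0.0766.

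Of 10 tested regulators of the salivary gland 0 were in higher and 2 in lower bins. CrebA, the factor that raises the secretory capacity of the gland, had 0.51 and 0.086 in fat body replicates, against 1.58 and 1.44 in salivary gland replicates (difference -1.21 ± 0.19 SE, limma adjusted p = 0.0262). The bin of fkh had -0.085 and -0.047 in fat body replicates, against 1.07 and 0.90 in salivary gland replicates. With the GC adjustment the limma adjusted p was 0.0324 for CrebA and 0.0506 for fkh, whose call was lost. These lists were chosen with earlier results of the data known, and their counts are a description.

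Genes of the larval serum proteins and their receptors, products of the fat body, had differences of both signs. Of the 5 that lay in tested bins 1 was called, and it was lower in the fat body: Lsp1beta at 21E had 0.10 and 0.24 in fat body replicates, against 1.05 and 1.08 in salivary gland replicates (difference -0.89 ± 0.13 SE, limma adjusted p = 0.0255). With the GC adjustment its difference was -0.49 and the call was lost (limma adjusted p = 0.103). Lsp1alpha at 11A had -0.0065 and 0.35 in fat body replicates, against -0.38 and -0.46 in salivary gland replicates (limma adjusted p = 0.0761). Fbp1 at 70D, a receptor for larval serum proteins, had 0.28 and 0.16 in fat body replicates, against -0.19 and -0.35 in salivary gland replicates (limma adjusted p = 0.0717). The tissues overlapped at Lsp2 in 68F, with 0.45 and -0.019 in fat body replicates and 0.13 and 0.13 in salivary gland replicates, and at Fbp2 in 30B. Adjusted for GC, the difference of Lsp1alpha went from 0.59 to -0.058 and that of Fbp2 from 0.23 to -0.012. Those of Fbp1 and Lsp2 were 0.39 and 0.25 with the adjustment, and these genes were not called. Lsp1gamma at 61A lay in a bin that was not tested, with 0.63 and 0.54 in fat body replicates and 0.50 and 0.16 in salivary gland replicates.

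**Figure D5:**
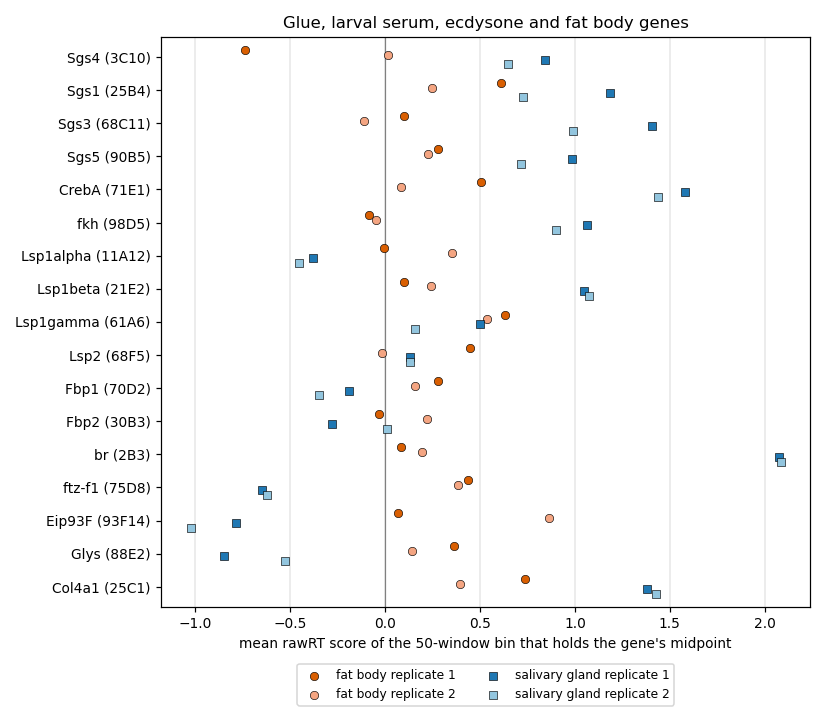
Mean rawRT score (horizontal axis, score without unit) of the bin that holds each gene's midpoint, in 2 fat body libraries (circles) and 2 salivary gland libraries (squares), for glue genes, salivary gland regulators, larval serum genes, ecdysone response genes and fat body genes with their cytological bands. The bin of br shows the widest gap, with 0.082 and 0.20 in fat body replicates and 2.08 in both salivary gland replicates, and the circles lie on both sides of the squares among the larval serum genes.

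Genes of fat body metabolism were called in both directions, 2 of 26 higher and 3 lower. Glys, the glycogen synthase, had 0.36 and 0.14 in fat body replicates, against -0.85 and -0.53 in salivary gland replicates (difference 0.94 ± 0.18 SE, limma adjusted p = 0.0351). The bin of foxo, the transcription factor that insulin signalling holds out of the nucleus, had 0.42 and 0.38 in fat body replicates and -0.20 and -0.23 in salivary gland replicates. Lower in the fat body were vkg and Col4a1 in 25C, the collagen IV genes whose products the fat body secretes, at 0.74 and 0.39 in fat body replicates and 1.38 and 1.43 in salivary gland replicates. Of 30 tested immunity genes 1 was in a higher bin and 0 in a lower one: Def, the antimicrobial peptide defensin, at 0.66 and 0.63 in fat body replicates and -0.074 and -0.058 in salivary gland replicates. All of these calls were lost when GC was adjusted for: the difference of foxo was 0.019 (limma adjusted p = 0.929), that of Glys 0.49 (0.173), that of the collagen genes -0.38 (0.132) and that of Def 0.49 (0.0717).

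Genes of the ecdysone response, which steers the end of larval life, had 4 of 27 in higher and 5 in lower bins, or 14.8% and 18.5%. The bin of br had 0.082 and 0.20 in fat body replicates, against 2.08 in both salivary gland replicates (difference -1.94 ± 0.13 SE, limma adjusted p = 0.0148). MsrA shared the bin of CrebA. In the other direction ftz-f1, a nuclear receptor of the prepupal response, had 0.44 and 0.38 in fat body replicates, against -0.65 and -0.62 in salivary gland replicates, and Eip93F, a factor of the larval tissues' breakdown, had 0.070 and 0.87 in fat body replicates and -0.79 and -1.02 in salivary gland replicates. With the GC adjustment the call of br held (difference -1.32, limma adjusted p = 0.0319), while those of ftz-f1 (0.27, 0.243) and Eip93F (1.04, 0.0709) were lost. The median difference of the 27 genes was -0.0058, against -0.031 over all genes.

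Genes of cell adhesion and of the nervous system were called in both directions. Of 61 tested genes of immunoglobulin-domain adhesion proteins 9 were in higher and 6 in lower bins, with median scores of -0.54 in the fat body and -0.50 in the salivary gland. The bin of beat-IIIc had -1.47 and -1.65 in fat body replicates, against -5.99 and -7.13 in salivary gland replicates, a difference of 5.00 ± 0.41 SE, and that of ed had -3.33 and -2.05 in fat body replicates and -0.21 and -0.12 in salivary gland replicates. Of 176 tested chemoreceptor genes 28 were in higher and 11 in lower bins, of 37 neuronal channel and receptor genes 5 and 2, and of 6 tested Hox genes 1 and 0, while the other 6 Hox genes lay in bins that were not tested. The called Hox gene was Dfd, which specifies head segments, at -0.38 and -0.35 in fat body replicates and -1.46 and -1.59 in salivary gland replicates. Among 66 developmental factors and signals 5 were in higher and 2 in lower bins, led by run, a pair-rule factor (1.63), ap (1.49), tin, the heart factor (-1.15), and Doc3, a T-box factor (-0.66). After quantile normalization the counts of higher and lower genes were 10 and 14 for adhesion proteins, 27 and 36 for chemoreceptors, 4 and 6 for neuronal genes and 5 and 13 for developmental factors. After scaling by signal SD they were 7 and 19, 22 and 21, 2 and 4, and 6 and 7, so the balance of these 4 lists turned or closed with the scaling. The calls of beat-IIIc, ed, Dfd, run and tin held with the GC adjustment, and those of ap (0.94, limma adjusted p = 0.0658) and Doc3 (-0.24, 0.272) were lost.

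Of 42 tested genes of replication and the endocycle 3 were in higher bins and 4 in lower. Those furthest apart were RnrL, the large subunit of ribonucleotide reductase (1.11), and Cdk1, the mitotic kinase (0.73), against Orc4, a subunit of the origin recognition complex (-0.85), and fzr, the activator of the anaphase-promoting complex that endocycles need (-0.83). After adjustment for GC all 4 calls were lost, with differences of 0.58, 0.68, -0.13 and -0.45 (limma adjusted p = 0.210, 0.0712, 0.504 and 0.103). SuUR, whose product is required for UR, lay in a bin with 0.17 and 0.12 in fat body replicates and -0.019 and 0.022 in salivary gland replicates (limma adjusted p = 0.444), and Rif1, which also acts in UR, in one with 0.18 and -0.062 in fat body replicates and 0.48 and 0.69 in salivary gland replicates (limma adjusted p = 0.0852).

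Of 84 ribosomal protein genes 8 were in higher bins and 5 in lower, from RpL38 (2.03) and RpL21 (1.74) at the bases of 2R and 2L to RpL19 (-1.30) and RpL28 (-1.30). Of 282 tested tRNA genes in 118 bins 24 were in higher and 9 in lower bins, and of 121 cuticle protein genes in 52 bins 6 and 2. Many of these genes lie in clusters and share a bin, so the bins, 12 higher and 6 lower for tRNA genes and 2 and 2 for cuticle protein genes, are the better count. After quantile normalization the genes in higher and lower bins were 8 and 20 for ribosomal proteins, 25 and 39 for tRNA and 2 and 20 for cuticle proteins, against 11 and 4, 31 and 12, and 2 and 4 after scaling by signal SD. The calls of RpL38, RpL21, RpL19 and RpL28 held with the GC adjustment.

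The other groups of the series gave the level of the same domains, and only some of the 16 named domains are given here. The longest, 41A to 41F on 2R, stood at the 19.8th and 17.1st percentile in the fat body. It was at the 59.2nd and 47.8th in follicle cells and the 22.5th and 22.1st in wing discs. In Rif1 salivary glands it was at the 6.14th and 5.34th, and in SuUR salivary glands at the 6.31st and 6.98th. The domain in 2B, at the 59.5th and 62.3rd percentile in the fat body, stood at the 77.0th and 78.4th in wing discs, at the 12.1st in both follicle cell libraries, at the 51.9th and 92.9th in Rif1 salivary glands and at the 99.5th and 97.2nd in SuUR salivary glands. The domain at 98D, at the 19.8th and 19.2nd percentile in the fat body, was at the 35.4th and 31.4th in wing discs and the 28.0th and 35.6th in follicle cells, and at the 98.9th and 97.4th in Rif1 and the 97.4th and 91.3rd in SuUR salivary glands. The domain of 97F to 98A, at the 9.26th and 10.5th percentile in the fat body, was low in follicle cells too (6.31 and 6.0) and in wing discs (11.8 and 9.70) but not in Rif1 (94.4 and 90.8) or SuUR salivary glands (85.8 and 73.4). The Nimrod cluster domain, at the 56.6th and 79.6th percentile in the fat body, was at the 85.4th and 84.6th in follicle cells, the 54.7th and 44.6th in wing discs, the 51.3rd and 58.9th in Rif1 salivary glands and the 21.1st and 15.6th in SuUR salivary glands. The domain of the CadN genes, at the 7.23rd and 7.68th percentile in the fat body, was at the 4.46th in both follicle cell libraries, at the 18.4th and 25.1st in wing discs, at the 56.7th and 69.4th in Rif1 and at the 7.23rd and 6.76th in SuUR salivary glands. The follicle cells and the yellow white wing discs were profiled by comparing S phase with G1 DNA, so only the order of bins within each library is set side by side.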

How the data were processed

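Genomic DNA was sequenced from 2 fat body and 2 salivary gland libraries. Reads were mapped by the authors with BWA mem 0.7.17 to the dm6 assembly; they marked duplicates with Picard, kept uniquely mapped reads with a MAPQ above 10 using SAMtools, counted them in windows of 1000 alignable bp, corrected for GC, filtered outlying windows and standardized each library. The deposited rawRT values are such a score, with UR put on the scale of the remaining arms, and a table smoothed with a cubic spline was deposited too and served as an alternative. The samples were grouped by the labels. Depth per sample is unknown.

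Means of 50 consecutive windows, with at least 25 values in each library, were compared with limma 3.58.1 (R 4.3.3) without a block, as fat body minus salivary gland, with Benjamini-Hochberg adjustment at 0.05. The code was tested on simulated data with the replicate spread of each bin and 200 shifted bins. At a shift of 0.75 it called 0 of the 200, and at 1.5 it called 155, with 7 other bins. These data have more called bins than that setting had shifted bins. A bin that was not called is not shown to be alike in the tissues. The study's one-way analysis of variance treats windows as replicates. Scaling, bin size, missing values, the prior, blocks, bin medians, GC content and leaving out libraries were varied. Regions and figures were made in Python 3.11.15 with coordinates of the RefSeq Release 6 annotation.

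The genes and regions named are the 6 longest domains of each direction outside UR and the 4 longest in UR, the fat body eUR regions without salivary gland UR, the salivary gland eUR regions with the 4 largest and 4 smallest differences, the 5 bins with the largest difference each way between Q1 and Q4, all glue and larval serum genes, up to 4 called genes of each other list, SuUR and Rif1. Regions lacking values in fat body replicate 2 were picked once their values were known. The members and lists were chosen with earlier results of these data known.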

Additional observations from a re-analysis of the deposited data

How the results depend on the processing

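The number of bins that differed depended on the setting. The 16 named domains kept their direction under both scalings, with the GC adjustment, with smoothed scores and over windows with a value in all 4 libraries. Leaving out 1 library could not turn them, since both fat body replicates lay on the same side of both salivary gland replicates in all 16. The size of 13 moved by more than the SD between replicates under each scaling and the GC adjustment. limma called 499 bins, 406 of them outside UR. It called 803 and 623 with bins of 25 windows, 332 in all with bins of 100 windows, 999 and 892 with a trended and robust prior, and 632 outside UR after quantile normalization. Leaving out 1 library gave 0 to 78 calls, 0 to 28 outside UR, with fewer samples in the fit. With a replicate block 0 bins were called, also outside UR, and 652 had an unadjusted p below 0.05. Between fat body and salivary gland libraries of the same number, the deviations had a negative correlation, r = -0.678 over all bins and -0.312 outside UR. Whether the numbers pair the samples was not tested. The block with crossed numbers, chosen after seeing the data, gave 793 calls and 636 outside UR. With the GC adjustment, also chosen after seeing the data, limma without a block gave 280 and 212. The share of calls higher in the fat body was 61.7%, with 42.8% after quantile normalization, 46.7% after scaling by signal SD and 96.2% to 96.7% without 1 salivary gland library. The study's test named 482 bins, with 234 after scaling by signal SD, 831 without the limit on length, 877 with Benjamini-Hochberg adjustment, 483 with a replicate block and 290 to 387 without 1 library. Of the listed genes 151 were in called bins, and 273 after quantile normalization. A UR threshold of -1 in both tissues gave 89 eUR regions in the fat body and 100 in the salivary gland. With that threshold 282 limma calls lay outside UR, among 1792 bins, against 406. The causes of these shifts were not tested. Missing windows of fat body replicate 2 limit the comparison in UR, and 2 libraries per tissue limit every p.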

Other observations

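Chromosome 4, which is not among the major arms, had a mean rawRT score of 0.23 and 0.15 in the fat body replicates, against -1.65 and 0.051 in the salivary gland replicates, over 1181 windows. The salivary gland replicates were further apart from each other than the fat body replicates.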
